A study of Mus musculus with 28 samples.

Results

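The genes described here build and drive the lysosome: 27 lumenal enzymes and their cofactors, 11 proteins of the lysosomal membrane, 26 symbols of the proton pump (V-ATPase) and its accessory subunits, and the transcription factors Tfeb and Tfe3. Of these 66 genes, out of 24391 symbols counted, 40 were given by name and all 40 were found, and the others were taken by the symbol prefixes Atp6v and Atp6ap. The cathepsins were left out. All libraries came from motor cortex of mice of genotype Cx3CR1-Cre/TRAPfl, in which Cre under the control of Cx3cr1, a gene of microglia and other macrophages, switches on a tagged ribosomal protein. TRAP (translating ribosome affinity purification) recovers the tagged ribosomes with their mRNA, and the total lysate is the tissue they were taken from. There were 4 groups of 7 libraries: TRAP from mice that had run 1 h on a rotarod, TRAP from home cage mice, total lysate from the run mice and total lysate from the home cage mice. The 14 mice each gave 1 library of each fraction, and each group held 4 mice of cohort 1 and 3 of cohort 2, cohort being the batch in the labels. By label 4 mice of each condition were female and 3 male. The labels name neither age nor strain background.

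Lysosomes break down material that a cell takes up or recycles. The V-ATPase is a rotary machine of a cytosolic V1 sector, which hydrolyses ATP, and a membrane V0 sector, which carries protons, and it holds the lumen at the acid pH at which the enzymes work. Membrane proteins shield the limiting membrane and carry products and ions across it. TFEB and TFE3 are known to bind E-box motifs with the letters CACGTG in promoters of lysosomal genes. Microglia are phagocytes with many lysosomes, while neurons also use V-ATPase to load synaptic vesicles.

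The promoter stretches of 6 members are shown because they hold the motif that these factors bind. The E-box CACGTG, the core TCACGTGA and the full CLEAR (coordinated lysosomal expression and regulation) motif, which adds a G before and a C after the core, were searched. Each contains the one before it and reads the same on both strands. RefSeq promoter windows on GRCm38.p6, from 250 bases before to 50 after the start, were matched for 55 of the 66 genes. The E-box stood in the window of 13 of the 55 genes (23.6%), against 8.09% of 27025 genes with a window of that length. The core stood in 6 of 55 (10.9%, against 1.12%) and the full CLEAR motif in 1 (1.82%, against 0.370%). By class the E-box was found in 6 of 25 enzyme genes, 3 of 10 membrane protein genes, 4 of 18 pump genes and 0 of 2 transcription factor genes. The capitals below mark the longest of these motifs at each place, and all stretches lie before the start site of the RefSeq window. By the gene bounds of GENCODE M21 the stretches of Cln3 and Atp6v1a lie inside the gene, and those of Naglu and Mcoln1 reach past its start.
Lamp1, chr8:13159086-13159160, plus strand: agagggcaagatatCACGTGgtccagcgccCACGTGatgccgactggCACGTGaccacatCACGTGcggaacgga
Cln3, chr7:126583336-126583396, minus strand: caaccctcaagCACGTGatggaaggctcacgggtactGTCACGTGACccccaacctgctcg
Naglu, chr11:101069994-101070054, plus strand: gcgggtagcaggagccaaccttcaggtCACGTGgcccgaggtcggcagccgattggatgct
Mcoln1, chr8:3500429-3500494, plus strand: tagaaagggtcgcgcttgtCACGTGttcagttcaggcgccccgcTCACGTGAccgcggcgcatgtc
Atp6v1a, chr16:44139359-44139419, minus strand: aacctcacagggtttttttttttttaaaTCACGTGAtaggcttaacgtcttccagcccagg
Gla, chrX:134601175-134601250, minus strand: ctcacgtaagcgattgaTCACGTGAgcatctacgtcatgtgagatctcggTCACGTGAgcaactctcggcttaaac
Lamp1 carried 4 E-boxes within 75 bases of its start, and Cln3 held the only full CLEAR motif among the members with a window. A match describes these letters in these windows and does not show that a factor binds there.

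The deposited counts summed to between 70090518 and 241381845 per library, and no pair of libraries of a group agreed within sampling noise. Levels are given as CPM, counts scaled by library total and by TMM factor (trimmed mean of M-values) over all 28 libraries, and each value has the spread of separate mice behind it. Y-linked counts went against the sex in the label for both libraries of 2 run mice of cohort 2. Leaving these mice out kept the counts of members called higher and lower in TRAP at 37 and 16, beside 5361 and 6885 of 17163 genes. Of the markers of the labelled cell type, 8 of 8 microglial genes were higher in TRAP (log2 fold 5.45 to 7.27), as were 4 of 4 of border-associated macrophages and 4 of 4 of endothelium, while 1 of 3 mural and 0 of 3 neutrophil markers was higher, the neutrophil list summing to at most 5.23 CPM in a library. All 6 neuronal, 5 astrocyte and 5 oligodendrocyte markers were lower in TRAP, but none of these had a median of 0 there. The 6 neuronal markers summed to 1815 to 7989 CPM in run and home cage TRAP libraries, against 7547 to 16403 CPM in lysate libraries.

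On a scale per kilobase of exon (RPKM), the pump was the class with the highest median level in both fractions. Over members with a mean of at least 1 CPM, its median in home cage mice was 67.9 RPKM in TRAP and 112.9 RPKM in lysate. The enzymes stood at 35.4 RPKM in TRAP and 9.39 RPKM in lysate, and the membrane proteins at 16.8 and 8.29 RPKM in the same order. With the longest transcript as gene length, the TRAP median of the membrane proteins was 33.0 RPKM. These class medians rest on both cohorts together. In TRAP the median difference of cohort 2 minus cohort 1 (log2) was 1.00 for enzymes, 0.33 for membrane proteins and -0.01 for the pump. In lysate it was 0.71, 0.01 and -0.19 in the same order. The lead of the pump over the enzymes in TRAP was thus smaller in cohort 2 than in cohort 1. Within the enzyme class the range was wide. Psap, the precursor of the saposins that present lipids to hydrolases, averaged 876 RPKM in home cage TRAP, Hexa, the alpha chain of beta-hexosaminidase A, 705 RPKM and Grn, the progranulin gene, 670 RPKM. At the other end, Galc (galactosylceramidase) averaged 1.11 RPKM and Gla (alpha-galactosidase) 1.95 RPKM. Membrane proteins ran from Laptm5, at 1754 RPKM in home cage TRAP and 11.1 RPKM in home cage lysate, over Cd68 (594 and 9.09 RPKM), Lamp1 (546 and 144 RPKM) and Laptm4a (462 and 189 RPKM) to Slc17a5 (5.33 and 4.69 RPKM). Laptm5 and Cd68 were thus among the highest in TRAP and low in the tissue, while Laptm4a was high in both. The level of Laptm4a differed by cohort, so its place beside Lamp1 did too. Its medians over run and home cage mice, cohort 1 first, were 1024 and 477 CPM in TRAP. In lysate they were 477 and 161 CPM. Lamp1, in the same order, had 1442 and 1619 CPM in TRAP and 391 and 380 CPM in lysate. Of the pump, Atp6v1f (352 and 260 RPKM) and the proteolipid gene Atp6v0b (324 and 281 RPKM) were highest in TRAP, and the neuronal Atp6v1g2 (152 and 325 RPKM) was highest in lysate. With the longest transcript as gene length, Atp6v0b was highest in both fractions, at 664 RPKM in TRAP and 576 RPKM in lysate. The ranks by exon length were taken on means over both cohorts, and some turned with cohort. In cohort 1 lysate Atp6ap2 stood above Atp6v1g2, with medians of 943 and 830 CPM over 2618 and 2510 exon bases. In cohort 2 lysate these medians were 270 and 881 CPM. In cohort 1 TRAP Atp6v1g1 stood above Atp6v1f and Atp6v0b, with medians of 397, 333 and 444 CPM over 1135, 1063 and 2051 exon bases. In cohort 2 TRAP these medians were 199, 417 and 960 CPM. As a share of all counts, enzyme genes took a median of 0.688% in run TRAP, 0.771% in home cage TRAP, 0.246% in run lysate and 0.256% in home cage lysate. For membrane proteins these medians were 0.679%, 0.710%, 0.130% and 0.131%, and for the pump 0.420%, 0.413%, 0.875% and 0.832%. Enzymes and membrane proteins thus took a larger share of TRAP than of lysate, and the pump a smaller one.

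Enzymes and their cofactors were mostly higher in TRAP than in the tissue. Of 27 genes, all tested, 22 were called higher in TRAP (adjusted p under 0.05 by edgeR over all 28 libraries with a cohort term), 3 lower and 2 were not called, and their median log2 fold was 1.74. Of all 16880 genes tested 33.8% passed upwards and 40.1% downwards, 73.9% in all, around a median fold of -0.21. DESeq2 put these shares at 33.2% and 42.7% and gave the same counts for enzymes. In bulk samples more cells of a type and more RNA per cell cannot be told apart, and this holds for every comparison of the fractions below. Nor does the ratio separate which cells hold an mRNA from its share on ribosomes or from tissue RNA left in TRAP. Grn (chromosome 11, 102430315 to 102437048 on GRCm38, plus strand), whose product is cut into granulins in the lysosome, ran from 672 over a median of 1269 to 4656 CPM in the 14 TRAP libraries, against 21.3, 28.3 and 88.7 CPM in lysate. Its lowest TRAP library lay far above its highest lysate library, and the log2 fold was 5.57 ± 0.11 (SE; adjusted p = 1.68e-27). Man2b1, the lysosomal alpha-mannosidase, had 174, 360 and 1101 CPM as lowest, median and highest TRAP values, against 14.0, 16.0 and 41.3 CPM in lysate (4.53 ± 0.12, adjusted p = 1.46e-24). Next came Hexa at 4.37 ± 0.11, the phospholipase Pla2g15 at 4.02 ± 0.11, the beta-glucuronidase Gusb at 3.84 ± 0.14 and the sterol carrier Npc2 at 3.67 ± 0.08. Heparan sulfate is taken apart by several members: Naglu (3.51) and Sgsh (3.49) were well above Idua (1.24), and Ids was below 0. Sphingolipid enzymes also differed among themselves, with the ceramidase Asah1 at 2.62, Glb1 at 1.54, Galc at 1.19 and the sulfatase Arsa at 0.87, while the sphingomyelinase Smpd1, at 0.02 ± 0.07, was not called (adjusted p = 0.774). The acid lipase Lipa was at 2.52, and the peptidase Tpp1 and the thioesterase Ppt1, both known from neuronal ceroid lipofuscinosis, at 2.35 and 1.39. The GM2 activator Gm2a (2.36), Manba (1.95), Galns (1.74), Fuca1 (1.71), Arsb (1.42) and Psap (1.37) were also called higher. Annotated exons of Grn, Sgsh, Arsa, Arsb, Hexa, Idua, Ppt1 and Galc share 68 to 1948 bases with genes on the opposite strand, those of Glb1 share 165 with Tmppe on the same strand, and as the strand setting is not given, reads from those bases cannot be told apart. For Hexa this is 255 of 1996 bases, while Arsb, at 1948, is touched most.

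Of the enzymes, 3 were called lower in TRAP. Ids, an iduronate sulfatase, had a lowest, median and highest level of 27.8, 281 and 516 CPM in TRAP and of 171, 354 and 531 CPM in lysate. These ranges overlapped. Its log2 fold of -0.75 ± 0.22 (adjusted p = 0.00368) was -1.69 in cohort 2 alone (adjusted p = 0.000201), while cohort 1 alone gave -0.06 ± 0.12 (adjusted p = 0.682). Without the cohort term its adjusted p was 0.320. Gla was low throughout, at 2.10, 6.02 and 10.1 CPM in TRAP and 6.61, 9.46 and 12.6 CPM in lysate, and was lower in TRAP in 14 of 14 mice (-0.68 ± 0.16, adjusted p = 0.000458). Gaa, the acid alpha-glucosidase that degrades glycogen, was at -0.44 ± 0.09 (adjusted p = 3.80e-05), lower in 14 of 14 mice, at -0.45 in cohort 1 and -0.43 in cohort 2, but without the cohort term its adjusted p was 0.268. The sialidase Neu1, at 0.10 ± 0.09, was not called (adjusted p = 0.338).

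**Figure D1:**
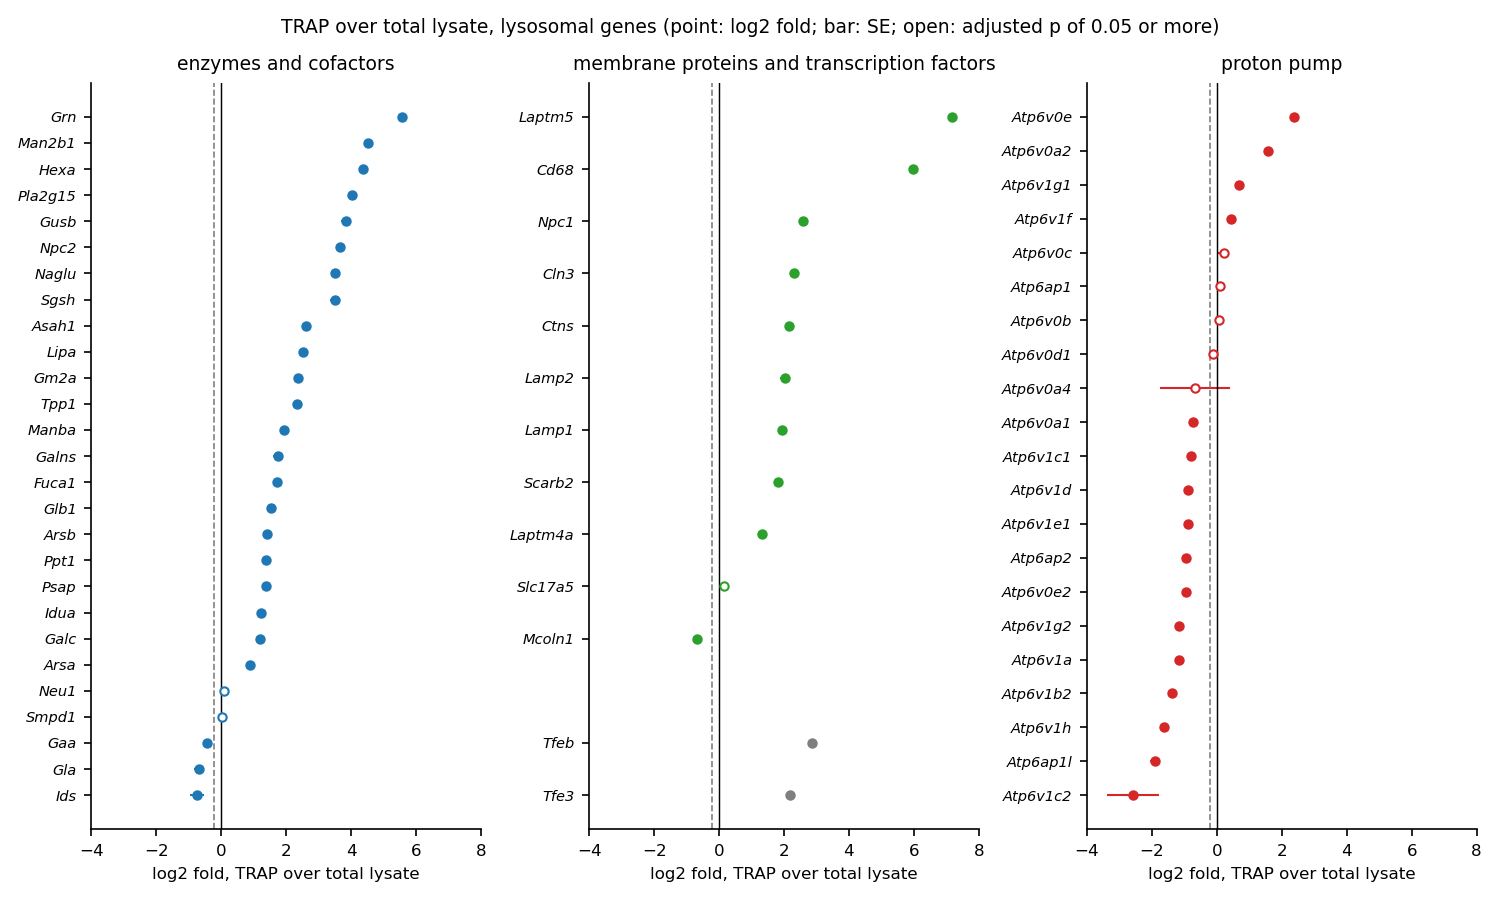
Log2 fold of TRAP over total lysate for the 61 lysosomal genes tested, by class (x axis, log2 fold; points, edgeR estimate over 28 libraries; bars, SE; open points, adjusted p of 0.05 or more; dashed line, median of all genes tested at -0.21). Enzymes and membrane proteins lie mostly right of 0, up to 7.18 for Laptm5, while 12 of 21 pump genes lie left of 0 as filled points.

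Membrane proteins of the lysosome were also mostly higher in TRAP, with 9 of 11 called higher, 1 called lower and a median log2 fold of 2.03. Laptm5 (chromosome 4, 130913125 to 130936141, plus strand), a membrane protein of blood cells and macrophages, ran from 2178 over a median of 3779 to 12603 CPM in TRAP, against 18.7, 28.7 and 73.4 CPM in lysate. This was the largest fold among the members tested, 7.18 ± 0.12 (adjusted p = 8.94e-29), or 145-fold. Cd68, a heavily glycosylated membrane protein used as a macrophage marker, had 356, 632 and 1062 CPM in TRAP and 7.30, 10.7 and 16.1 CPM in lysate (5.97 ± 0.11, adjusted p = 3.06e-28). The folds of both genes lay within the range of the 8 microglial markers. Lamp1, an abundant protein of the limiting membrane in most cells, had 1078, 1576 and 1848 CPM in TRAP, against 363, 385 and 446 CPM in lysate. The 14 libraries of each fraction did not overlap, but the log2 fold was 1.95 ± 0.07 (adjusted p = 9.63e-21), well under those of Laptm5 and Cd68. The cholesterol exporter Npc1 (2.59), the Batten disease gene Cln3 (2.30), the cystine exporter Ctns (2.16), Lamp2 (2.03), the enzyme receptor Scarb2 (1.81) and Laptm4a (1.34) were likewise called higher. Exons of Lamp1 (249 of 2675 bases), Npc1 (511) and Cln3 (442) overlap genes on the opposite strand, and reads of the shared bases cannot be told apart.

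Mcoln1, the cation channel that releases calcium from lysosomes, was the membrane gene called lower in TRAP. Its lowest, median and highest levels were 19.6, 30.9 and 75.6 CPM in TRAP, against 36.0, 45.3 and 100.1 CPM in lysate. The ranges overlapped across cohorts, yet it was lower in TRAP in 14 of 14 mice (-0.66 ± 0.08, adjusted p = 9.13e-09). The sialic acid exporter Slc17a5 had 11.1, 17.5 and 25.3 CPM in TRAP and 12.5, 15.8 and 21.9 CPM in lysate and was not called (0.17 ± 0.10, adjusted p = 0.133).

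**Figure D2:**
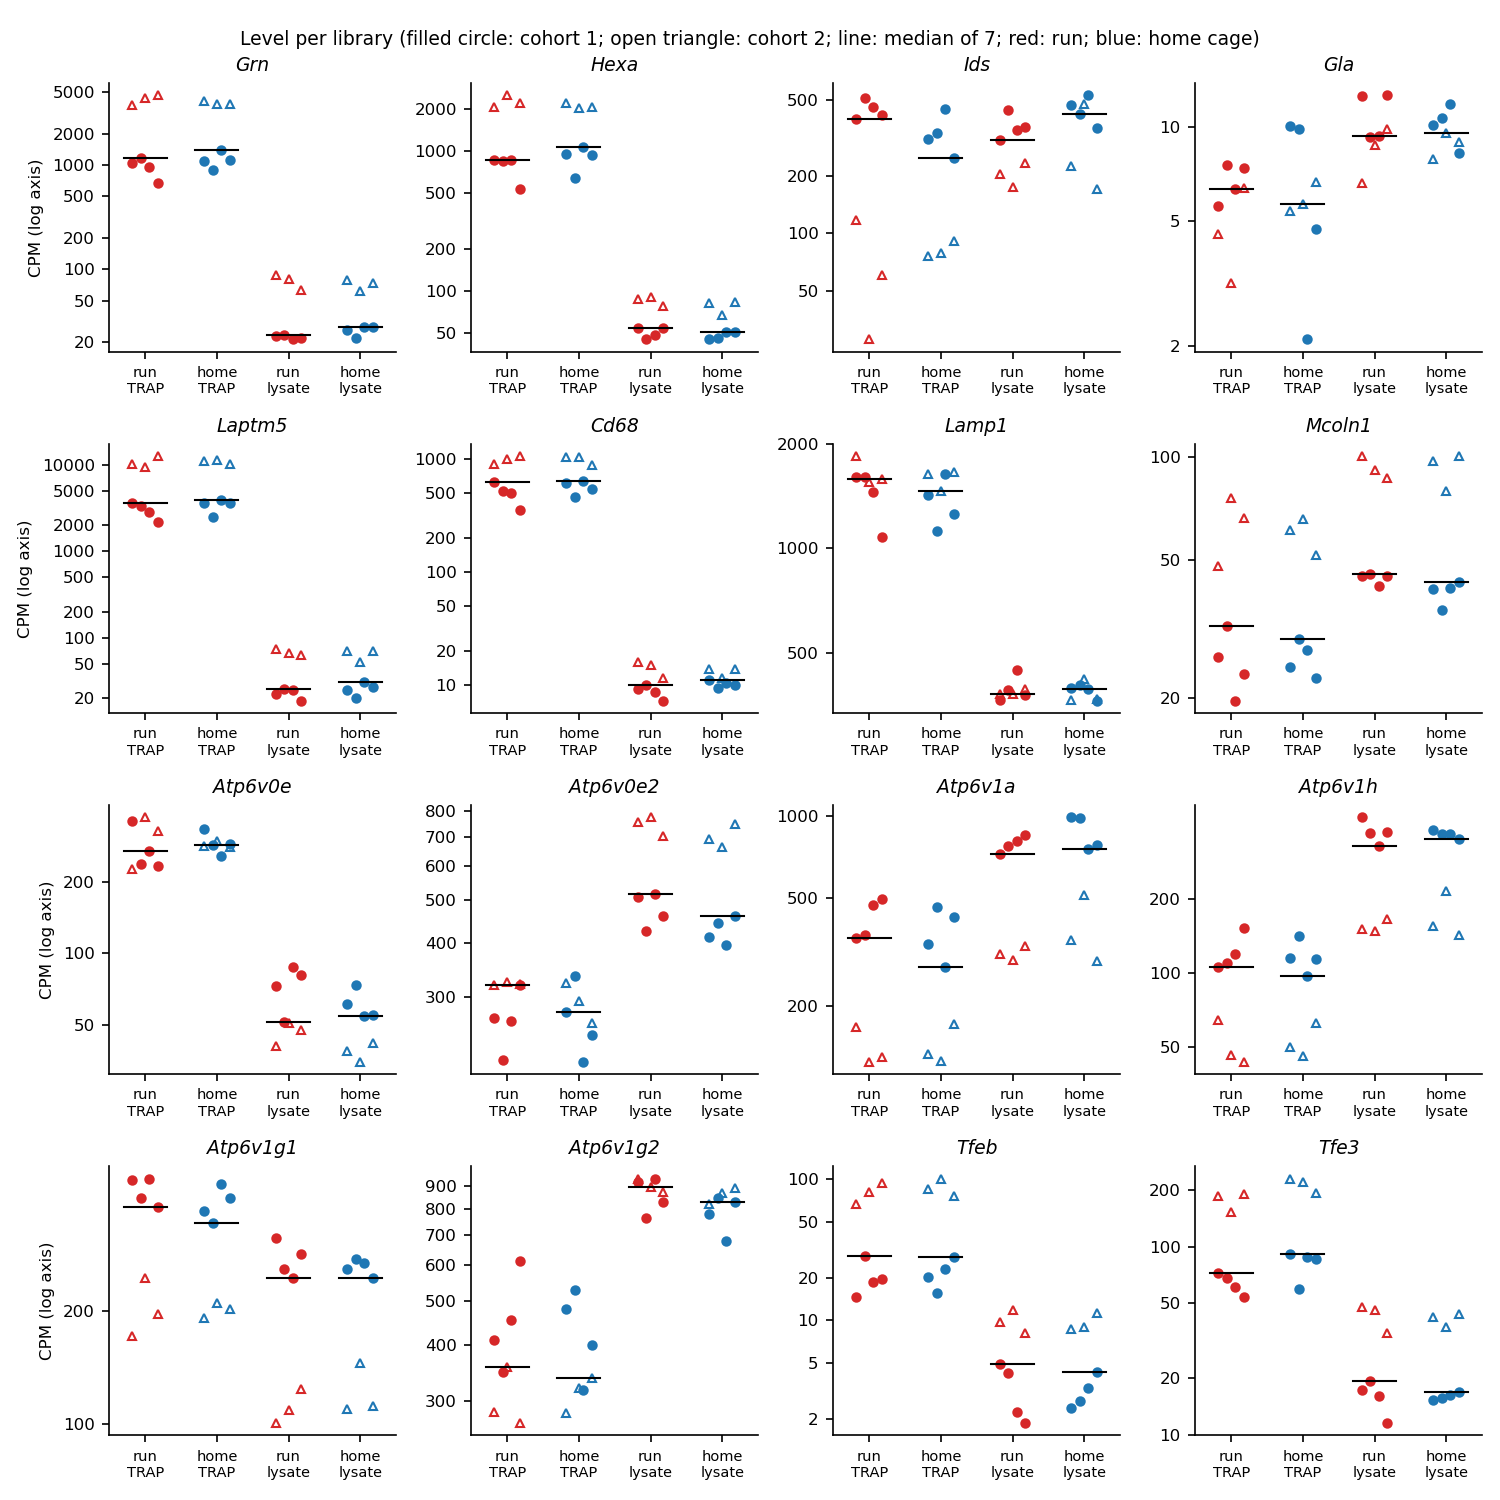
Level in every library for 16 lysosomal genes (y axis, CPM on a log axis; x axis, the 4 groups of 7 libraries; red, run; blue, home cage; filled circles, cohort 1; open triangles, cohort 2; lines, group medians). Grn, Hexa, Laptm5, Cd68 and Tfeb are higher in every TRAP library than in any lysate library, while run and home cage libraries of a fraction overlap.

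The proton pump went the other way. Of its 26 symbols, 21 could be tested between the fractions, of which 12 were called lower in TRAP and 4 higher, with a median log2 fold of -0.81. Without the TMM factors, which moved the median of all genes to -0.72 and the shares called higher and lower to 23.2% and 56.7%, the pump counted 3 higher and 15 lower. Of the genes not called with the factors, Neu1, Smpd1, Slc17a5, Atp6ap1, Atp6v0b and Atp6v0d1 were called lower without them (-0.64 to -0.34, adjusted p = 1.93e-07 to 0.00663). Against the median of all genes the class medians kept their places: 1.95 and 1.94 for enzymes with and without the factors, 2.24 in both cases for membrane proteins and -0.60 in both cases for the pump. The folds of the 12 lower pump genes, other than the rare Atp6v1c2, ran from -1.92 to -0.73. Those of the 6 neuronal markers ran from -1.83 to -0.70 in the same libraries. The 5 astrocyte and 5 oligodendrocyte markers were lower in TRAP too. Medians of the summed oligodendrocyte markers were 1658 and 1260 CPM in run and home cage TRAP, against 4731 and 4751 CPM in lysate. For the astrocyte markers they were 693 and 601 CPM, against 982 and 1032 CPM. What part RNA of these cell types has in the pump levels was not tested.

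In the catalytic V1 sector, the genes of the hexamer and of the stalks were lower in TRAP, apart from Atp6v1f and Atp6v1g1. Atp6v1a and Atp6v1b2, whose products form the ATP-hydrolysing ring, were at -1.16 ± 0.09 and -1.37 ± 0.08. Atp6v1h (chromosome 1, 5070018 to 5162529, plus strand), the regulatory subunit that couples V1 to V0, was at -1.64 ± 0.08, with a fold of -1.64 in each cohort. The stalk subunits Atp6v1e1 (-0.89 ± 0.07), Atp6v1d (-0.88 ± 0.08) and Atp6v1c1 (-0.81 ± 0.06) lay close together. Atp6v1c1 had 175, 439 and 532 CPM as lowest, median and highest TRAP levels and 297, 765 and 949 CPM in lysate. Its paralog Atp6v1c2 was rare, at 0, 0.130 and 0.702 CPM in TRAP and 0.0474, 0.672 and 1.44 CPM in lysate. Its call (adjusted p = 0.00497) was lost in cohort 2 alone (adjusted p = 0.144). Atp6v1f, of the central stalk, was called higher at 0.43 ± 0.10 (adjusted p = 0.000275), in 13 of 14 mice, though its fold was -0.09 without the TMM factors and was not called in cohort 1 alone (0.18, adjusted p = 0.0846).

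The membrane V0 sector was split. The proteolipid gene Atp6v0b (0.06 ± 0.11) and Atp6v0d1 (-0.13 ± 0.08), which links the ring to the central stalk, were not called. Atp6v0d1 was called lower without the home cage mouse Female2 of cohort 1 (-0.24, adjusted p = 0.0106) and with DESeq2 (-0.17, adjusted p = 0.0486). Atp6v0c, the other proteolipid gene, was counted at only 1.87 to 6.19 CPM in TRAP and 1.18 to 5.48 CPM in lysate, and has a processed copy, Atp6v0c-ps2, among the symbols counted, so its level is uncertain. Of the accessory subunits, Atp6ap1 was not called (0.09 ± 0.07), other than in cohort 2 alone (0.30, adjusted p = 0.00696), and Atp6ap2, the prorenin receptor gene, was lower at -0.95 ± 0.09. Atp6ap1l (chromosome 13, 90883433 to 90905355, minus strand), a gene similar to Atp6ap1, had 2.93, 5.81 and 14.0 CPM in TRAP and 10.9, 21.8 and 52.5 CPM in lysate (-1.92 ± 0.14, adjusted p = 3.14e-13).

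The G, a and e subunits of the pump were split by form, while both forms of the C subunit were lower in TRAP (Atp6v1c1 at -0.81 and the rare Atp6v1c2 at -2.58). The G subunit of the stalk has a ubiquitous form, Atp6v1g1, and a neuronal form, Atp6v1g2. Atp6v1g1 had 171, 354 and 447 CPM as lowest, median and highest TRAP levels and 101, 244 and 311 CPM in lysate (0.67 ± 0.07, adjusted p = 5.90e-10). Atp6v1g2 had 268, 352 and 612 CPM in TRAP and 678, 858 and 935 CPM in lysate, with no overlap (-1.16 ± 0.10, adjusted p = 1.04e-11). Per kilobase of exon, G1 made up 56.9% to 75.1% (median 61.0%) of the summed G1 and G2 level in TRAP, against 19.3% to 46.5% (median 38.0%) in lysate. Its median was 61.8% in run TRAP and 60.0% in home cage TRAP, and 36.6% in run lysate and 39.4% in home cage lysate. In lysate the share was lower in every cohort 2 library than in any cohort 1 library. The lysate medians thus describe no cohort 2 library. There Atp6v1g1 had 101 to 145 CPM in cohort 2 lysate and 243 to 311 CPM in cohort 1 lysate. Exons of Atp6v1g2 share 144 bases with Nfkbil1 on the opposite strand, so with the strand setting not given these reads cannot be assigned.

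The a subunit, which anchors the pump to a given membrane, and the small e subunit were split in the same way. Atp6v0a1, the form of synaptic vesicles, had 87.2, 114 and 216 CPM in TRAP and 115, 164 and 413 CPM in lysate (-0.73 ± 0.09, adjusted p = 2.21e-08). Atp6v0a2, a form of Golgi and endosomes, had 84.9, 120 and 214 CPM in TRAP and 30.7, 36.5 and 70.9 CPM in lysate, again with no overlap (1.58 ± 0.06, adjusted p = 5.69e-20). The a2 form thus held a median of 51.4% (41.2% to 57.4%) of the a1 and a2 level per kilobase in TRAP, against 17.3% (14.2% to 23.3%) in lysate. Exons of Atp6v0a2 share 663 of 6726 bases with an antisense transcript. Atp6v0e (chromosome 17, 26663231 to 26699647, plus strand), the ubiquitous e form, had 227, 283 and 371 CPM in TRAP and 35.1, 53.2 and 87.8 CPM in lysate (2.39 ± 0.12, adjusted p = 7.27e-18). Atp6v0e2, its paralog, had 213, 285 and 336 CPM in TRAP and 395, 513 and 774 CPM in lysate (-0.96 ± 0.08, adjusted p = 7.09e-12). The e1 share was 40.0% (31.3% to 46.0%) in TRAP and 7.19% (3.29% to 10.1%) in lysate. The a2 and e1 shares in lysate, too, were lower in every cohort 2 library than in any cohort 1 library. Tcirg1, which encodes the a3 form and falls outside the name rule, was at 4.13 ± 0.16 in TRAP over lysate.

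**Figure D3:**
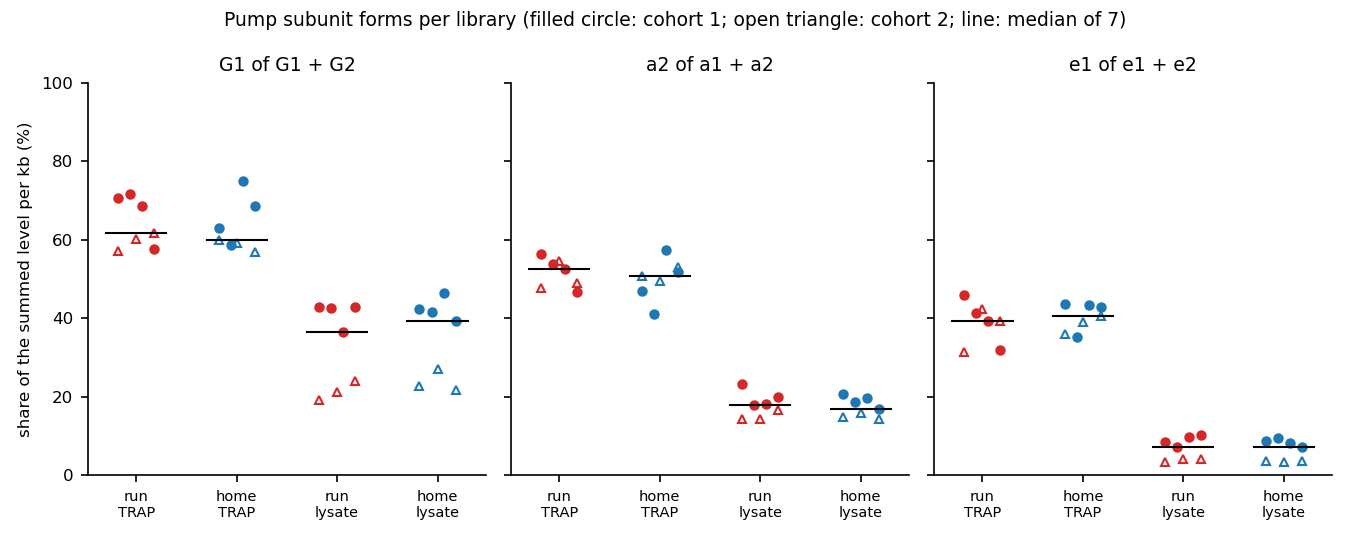
Share of 1 form of a pump subunit in the summed level of both forms per kilobase of exon, in every library (y axis, percent; x axis, the 4 groups of 7 libraries; red, run; blue, home cage; filled circles, cohort 1; open triangles, cohort 2; lines, group medians). Every TRAP library lies above every lysate library for G1, a2 and e1, with medians of 61.0%, 51.4% and 40.0% in TRAP, against 38.0%, 17.3% and 7.19% in lysate. In lysate the shares of cohort 2 lie below those of cohort 1.

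A further 5 pump genes were not tested between the fractions over all libraries. Atp6v1b1 and Atp6v1g3, forms of kidney cells, and the pseudogene Atp6v0c-ps2 had 0 counts in all 28 libraries, which allows levels of up to 0.0129 to 0.0380 CPM, depending on the library, and covers counting error only. Atp6v0d2, the d form known from osteoclasts, summed to 218 counts over the 14 TRAP libraries and 6 over the 14 lysate libraries, with 0 to 80 counts per TRAP library. Atp6v1e2, a testis form, lay between 0 and 42 counts in TRAP libraries and 0 and 16 in lysate libraries. Atp6v0a4 was tested, but at a median of 0 CPM in TRAP and 0.00923 CPM in lysate its fold of -0.66 ± 1.08 was not called.

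Both transcription factors were higher in TRAP. Tfeb (chromosome 17, 47737030 to 47792419, plus strand) had 14.6, 28.3 and 101.2 CPM as lowest, median and highest TRAP levels and 1.88, 4.62 and 11.9 CPM in lysate (2.88 ± 0.15, adjusted p = 2.85e-17). Tfe3 had 53.8, 89.8 and 231 CPM in TRAP and 11.6, 18.3 and 47.8 CPM in lysate (2.19 ± 0.08, adjusted p = 1.81e-20). In neither gene did the libraries of the fractions overlap. The 6 genes whose window holds the core lay on both sides: Cln3 and Atp6v0e were higher in TRAP, Gla, Mcoln1 and Atp6v1a were lower, and Atp6v0d1 was not called. Of the 7 genes with the E-box alone, Arsa, Glb1, Naglu, Sgsh and Lamp1 were higher, Gaa was lower and Atp6v0b was not called.

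By the stricter count of libraries that do not overlap, all 14 TRAP libraries lay above all 14 lysate libraries for 17 of 27 enzymes, 7 of 11 membrane proteins, 2 of 19 pump genes and both transcription factors, among genes with a mean of at least 1 CPM. Over the 13716 genes at that level this held for 14.3%. All TRAP libraries lay below all lysate libraries for 4 of the 19 pump genes, which were Atp6v0e2, Atp6v1b2, Atp6v1e1 and Atp6v1g2, and for 0 enzymes and membrane proteins, against 5.26% of genes.

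Lysosomal genes outside the members were set beside them. All 15 other enzymes and cofactors were called higher in TRAP, with a median of 1.77, among them the nuclease Dnase2a (4.75 ± 0.17). Of 22 other membrane proteins tested, 12 were higher, 6 lower and 4 not called, from the peptide carrier Slc15a3 (6.79 ± 0.30) and the metal carrier Slc11a1 (6.18 ± 0.15) to the chloride transporter Clcn6 (-1.48 ± 0.15). Among 11 pump subunits and assembly genes under other names, 4 were higher and 6 lower, with Tcirg1 highest and Dmxl2, a partner of the synaptic pump, lowest at -1.81 ± 0.13. Sorting genes counted 7 higher and 2 lower of 11, with the mannose 6-phosphate receptor M6pr at 1.68 and its large relative Igf2r at -1.62. Of 17 nutrient sensing genes and relatives of Tfeb, 9 were higher and 7 lower, from Rragb (-2.47) to Tfec (4.92 ± 0.97) and with Mitf at 2.16.

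The ratio of TRAP to lysate differed between the cohorts for 18 members, while its direction mostly held. Fitted alone, cohort 1 called 22 enzymes higher and 2 lower, 9 membrane proteins higher and 1 lower, and 3 pump genes higher and 13 lower, beside 31.0% of all genes higher and 32.9% lower. Cohort 2 called 22 and 3, 9 and 1, and 6 and 11 in the same order, beside 32.0% and 37.3% of all genes. The interaction of fraction and cohort was called in 9 of 27 enzymes, 1 of 11 membrane proteins and 8 of 22 pump genes, and in 20.1% of all 17092 genes tested (8.25% higher in cohort 2, 11.8% lower). Of the 9 enzymes 8 had a larger ratio in cohort 2, among them Gusb (1.07 ± 0.16, adjusted p = 2.38e-05) and Idua (0.92), and Ids had a smaller one (-1.68). Of the 8 pump genes 4 had a larger ratio, with Atp6v0b at 0.85, and 4 a smaller one, with the neuronal Atp6v1g2 at -0.63. Without the 2 run mice set apart by their Y-linked counts, 13 members were called in this test, beside 2312 of 17468 genes. Atp6v0b was called lower in TRAP in cohort 1 (-0.31, adjusted p = 0.0102) and higher in cohort 2 (0.55, adjusted p = 0.000844). In the same fit all 6 neuronal markers had a smaller ratio in cohort 2, by a median of -0.97, and 3 of 8 microglial markers a larger one. What part this has in the members' ratios was not tested.

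Levels also differed between the cohorts within a fraction, and they did so along base composition. Among members with a mean of at least 1 CPM, all 6 cohort 2 libraries lay above all 8 of cohort 1 for 29 of 59 members in TRAP (25.0% of 13716 genes) and 27 in lysate (31.4% of genes). They lay below for 9 members in TRAP (20.7% of genes) and 14 in lysate (24.8% of genes). Enzymes were mostly above, 18 of 27 in TRAP, with 1 below, while of 19 pump genes 4 were above and 6 below. The GC content of the longest transcript ran from 37.6% to 63.2% over the 59 members, with a median of 53.2% for enzymes, 49.4% for membrane proteins and 50.3% for the pump. Across these genes, which share their libraries and are not independent replicates, Spearman's correlation of GC content with the cohort difference was 0.837 in TRAP and 0.772 in lysate, against 0.765 and 0.815 over all 13244 genes with a GC value. Grn (56.1% GC) was 1.99 higher in cohort 2 TRAP on the log2 scale, and Lamp2 (38.7%) was at -1.62 there. In TRAP the lowest value was that of Ids (41.4%), at -2.46, while in lysate Ids was at -0.79 and Lamp2 at -1.74. With the ratio of TRAP to lysate, GC content correlated less, at 0.337 over the members and 0.142 over all genes.

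**Figure D4:**
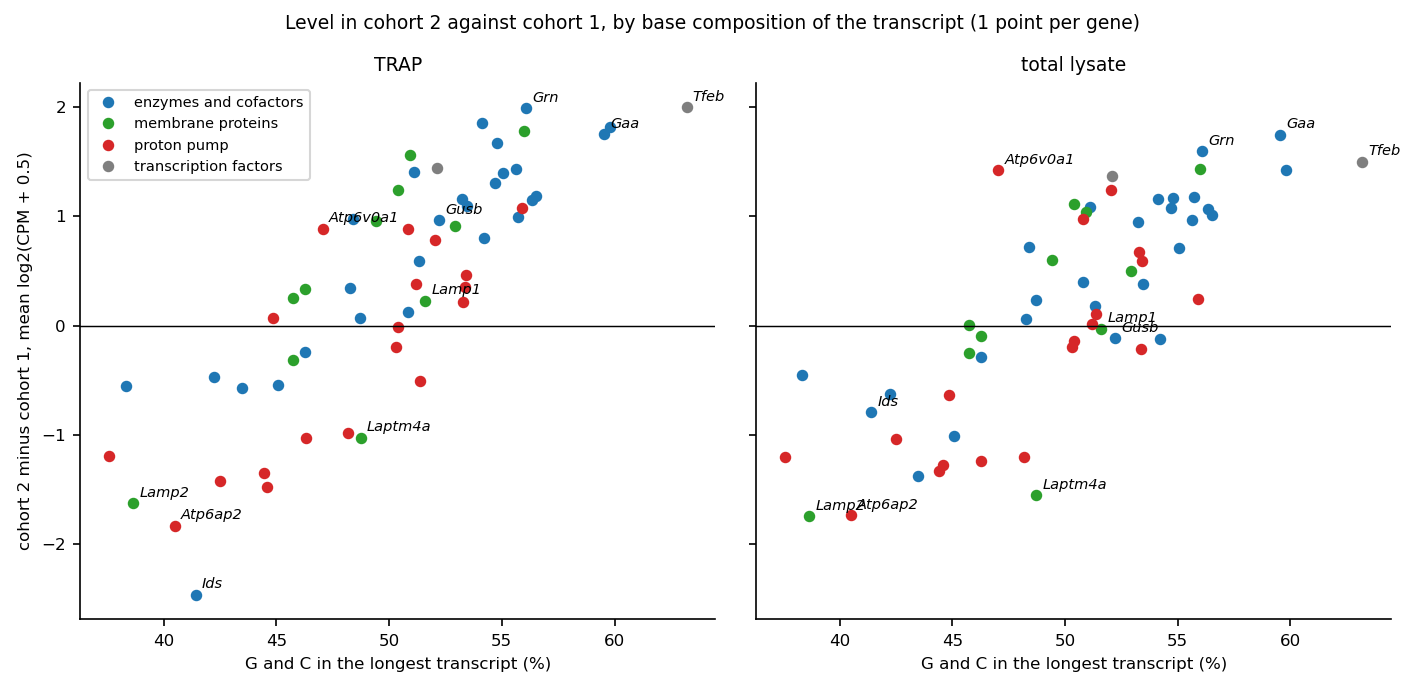
Mean level in cohort 2 minus that in cohort 1, averaged over run and home cage, against GC content of the longest transcript for 59 lysosomal genes (y axis, difference of mean log2 of CPM plus 0.5; x axis, percent G and C; colours, classes; left, TRAP; right, total lysate). GC-rich genes such as Grn and Tfeb lie above 0 and GC-poor genes such as Lamp2, Atp6ap2 and Ids below it in both fractions.

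After 1 h on the rotarod no member was called in TRAP. Of 60 members tested 0 passed the adjusted threshold, by edgeR and by DESeq2, and 2 had an unadjusted p under 0.05. Over all 15644 genes tested 6 were called by edgeR (0.0384%) and 42 by DESeq2 (0.268%), and 3.56% had an unadjusted p under 0.05. The class medians of the log2 fold of run over home cage were -0.08 for enzymes, -0.08 for membrane proteins and 0.01 for the pump. Of 27 enzymes 23 had a negative fold, as had 9 of 11 membrane proteins and 7 of 20 pump genes, against 49.8% of all genes. Members share their libraries, so these counts, like those of negative folds below, are not counts of independent genes. The folds of members were small: for the 59 members with at least 1 CPM the SE ran from 0.10 to 0.28, and all 95% intervals lay between -0.67 and 0.59. The intervals use a normal approximation and are somewhat narrower than edgeR's test implies. That of Tpp1 ran from -0.52 to -0.02, at an unadjusted p of 0.0507 by edgeR. In the same comparison 4 of 4 endothelial markers had a negative fold (median -0.43) and 5 of 6 neuronal markers a positive one (median 0.18), none called, and their part was not tested.

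The smallest p in TRAP was that of Tfe3, with 53.8, 72.7 and 192 CPM as lowest, median and highest level in run mice, against 59.7, 91.7 and 231 CPM in home cage mice. The groups overlapped, and the log2 fold was -0.32 ± 0.12 (unadjusted p = 0.0168, adjusted p = 0.999), at -0.34 in cohort 1 and -0.30 in cohort 2. Tfeb, at 14.6, 28.4 and 94.8 CPM in run and 15.7, 28.1 and 101.2 CPM in home cage TRAP, was at -0.10 ± 0.17. Manba, the lysosomal beta-mannosidase, had 16.3, 21.1 and 34.7 CPM in run and 19.7, 28.4 and 36.0 CPM in home cage TRAP (-0.35 ± 0.16, unadjusted p = 0.0388). Tpp1 had 159, 236 and 247 CPM in run and 205, 266 and 302 CPM in home cage TRAP (-0.27 ± 0.13, unadjusted p = 0.0507). Over both cohorts the groups overlapped for each of these genes. Within cohort 1 this held for all 59 members at 1 CPM or more, where 1.43% of all genes had every run library above every home cage library and 1.03% below. Within cohort 2 the 3 run libraries lay below the 3 home cage libraries for 3 of 59 members, beside 3.89% of all genes, and above for Atp6v1e1 alone, beside 5.07%. The lower ones were Tfe3 (153, 187 and 192 CPM in run, against 194, 221 and 231 CPM in home cage TRAP), Tpp1 (173, 228 and 247 CPM, against 264.7, 265.7 and 302 CPM) and Slc17a5. Of the 3 run mice of cohort 2, 2 are those whose Y-linked counts went against their label. Lamp1, by contrast, was at 0.07 ± 0.12.

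In total lysate no member was called either. Of 60 members tested 0 were called by edgeR or DESeq2, against 5 of 16522 genes (0.0303%) by edgeR and 40 (0.242%) by DESeq2, and 2 had an unadjusted p under 0.05, against 7.3% of genes. Class medians were 0.02 for enzymes, -0.05 for membrane proteins and 0.04 for the pump. A negative fold was seen in 9 of 27 enzymes, 7 of 11 membrane proteins and 8 of 20 pump genes, against 49.6% of all genes. Atp6v0e had 40.9, 51.7 and 87.8 CPM in run lysate and 35.1, 54.7 and 73.3 CPM in home cage lysate. The fitted log2 fold, which takes account of cohort, was 0.27 ± 0.11 (unadjusted p = 0.0258, adjusted p = 0.669), at 0.27 in cohort 1 and 0.26 in cohort 2, although the group median was lower in run lysate. Ids had 175, 307 and 445 CPM in run lysate and 171, 423 and 531 CPM in home cage lysate (-0.38 ± 0.17, unadjusted p = 0.0439, adjusted p = 0.678). Its fold was -0.29 in cohort 1 and -0.52 in cohort 2. In cohort 2, home cage Female2 had 477 CPM, against 171 and 227 CPM in the other home cage lysates and 175 to 234 CPM in run lysates. Atp6v1a, Atp6ap2, Lamp2 and Atp6v1h were also highest in this library among cohort 2 lysates, with Atp6v1a at 513 CPM and next at 349 CPM. Atp6v1e1 had 477, 519 and 612 CPM in run lysate and 447, 478 and 551 CPM in home cage lysate (0.13 ± 0.06, unadjusted p = 0.0516). All 4 endothelial markers had a negative fold here too (median -0.43), again none called and their part not tested.

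**Figure D5:**
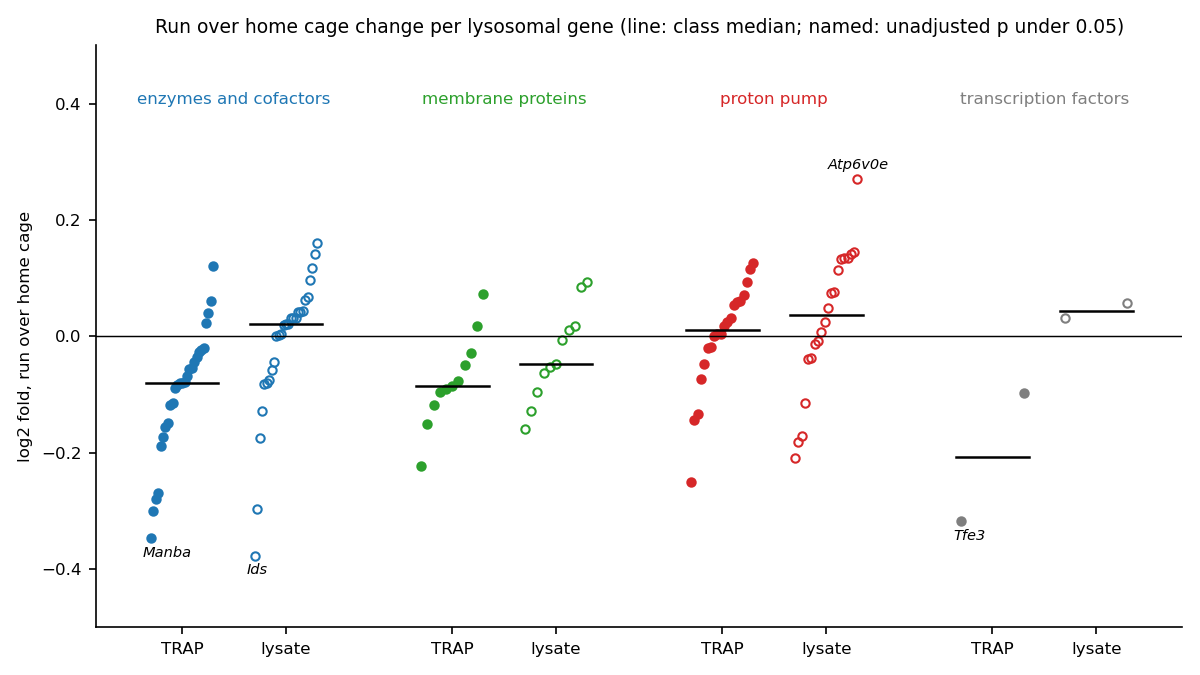
Log2 fold of run over home cage for each lysosomal gene tested, by class and fraction (y axis, log2 fold; filled points, TRAP; open points, total lysate; lines, class medians; named genes, unadjusted p under 0.05). All points lie between -0.38 and 0.27, the class medians of enzymes, membrane proteins and pump between -0.08 and 0.04, and no gene passed the adjusted threshold.

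Whether the change after running differed between TRAP and lysate was tested over all 28 libraries. Of 61 members 0 were called by edgeR or DESeq2, as were 0 of 16880 genes (0.0%) by edgeR and 31 (0.184%) by DESeq2, and 1 member had an unadjusted p under 0.05, against 4.12% of genes. That member was Tfe3 (-0.34 ± 0.16, unadjusted p = 0.0407), followed by Manba (-0.40 ± 0.23, unadjusted p = 0.0932) and Atp6v1a (0.31 ± 0.19, unadjusted p = 0.109), each at an adjusted p of 1.0. The difference was negative for 20 of 27 enzymes, 8 of 11 membrane proteins and 14 of 21 pump genes, against 48.8% of genes. Without the 2 run mice whose Y-linked counts went against their label, 8 members had an unadjusted p under 0.05, against 10.8% of genes, and again 0 were called. Atp6v1a had 125, 355 and 497 CPM in run TRAP, 125, 279 and 462 CPM in home cage TRAP, 294, 724 and 857 CPM in run lysate and 293, 758 and 990 CPM in home cage lysate. A difference of the run change between cohorts was called by edgeR for 0 of 61 members in TRAP and in lysate and for 0 of 16289 and 0 of 17101 genes in all (0.0% each). DESeq2 called 0 members, against 55 genes (0.338%) in TRAP and 6 (0.0351%) in lysate. By edgeR 0 members had an unadjusted p under 0.05 in either fraction, against 4.94% and 2.5% of genes. The class medians in TRAP were -0.10 in cohort 1 and -0.06 in cohort 2 for enzymes, -0.06 and -0.02 for membrane proteins and -0.03 and -0.02 for the pump. In lysate they were 0.02 and 0.04 for enzymes, 0.019 and -0.0015 for membrane proteins and 0.07 and 0.08 for the pump, so the membrane median of -0.05 over both cohorts was seen in neither. With 1 mouse left out at a time it ran from -0.057 to 0.0018.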

How the data were processed

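Deposited whole-number counts per gene symbol were used for 28 libraries of 14 mice. Per the submitters' processing notes, the genome build was GRCm38 and the tools included STAR 2.7.7a, featureCounts and DESeq2, and the labels name poly(A) RNA and Nextera XT libraries. The annotation and the strand setting are not named in the labels or the table, and mitochondrially encoded genes were not analysed here. No column belonged to another sample (0 found), and columns without a cohort mark were taken as cohort 1.

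Counts were fitted with edgeR 4.0.16 in R 4.3.3 (quasi-likelihood F test, TMM factors, filterByExpr, a cohort term, Benjamini-Hochberg adjustment over all genes tested, threshold 0.05), after a check on simulated data. A positive log2 fold means higher in TRAP, in run mice or in cohort 2. DESeq2 1.42.0 and other settings were alternatives. RPKM values divide CPM by the exon length of GENCODE M21, and 0.5 CPM was added before the cohort difference was taken on the log2 scale. Promoter sequences were taken from RefSeq. Totals per library run from 70090518 to 241381845, so a count of 0 allows at most 0.0129 to 0.0380 CPM (3 counts), which covers counting error only. No pair of libraries within a group came closer than a chi-square of 67.5 per degree of freedom.

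The 2 fractions of a mouse come from the same animal, by its title, and are paired. Correlation between the 2, after the mean of each group was taken off, ran from -0.375 to 0.308 and passed 0.1 for 6 of 14 mice. Values of all libraries are summarised for the highest and lowest 2 folds of each class, Lamp1, the transcription factors, pump paralogs and the 3 smallest p of each run comparison. The members, classes and gene lists were chosen with earlier results of these data known. The GC comparison, the counts of libraries that do not overlap and the counts of negative folds were added after the data were seen, as were the alternatives for the comparisons of the cohorts.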

Additional observations from a re-analysis of the deposited data

Results flagged for a closer look

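In single libraries, Atp6v1c2 stood at 0.530 CPM in the run TRAP library Female1 of cohort 2, away from the other run TRAP libraries, the next of which was at 0.215 CPM. Lamp1 stood at 446 CPM in the run lysate library Male1 of cohort 1, with the next at 393 CPM. Chance alone sets about 1 in 20 groups apart in this way.

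The ratio of TRAP to lysate differed between cohorts for 18 members by the interaction term of edgeR's fit over 28 libraries, beside 20.1% of all genes. Given as cohort 2 minus cohort 1 on the log2 scale, the enzymes and cofactors with a larger ratio in cohort 2 were Gusb (1.07), Idua (0.92), Asah1 (0.82), Fuca1 (0.71), Hexa (0.65), Man2b1 (0.63), Ppt1 (0.48) and Npc2 (0.41). Among pump genes these were Atp6v0b (0.85), Atp6v0e (0.73), Atp6v1f (0.58) and Atp6ap1 (0.37), and among membrane proteins Laptm4a (0.54). A smaller ratio in cohort 2 was found for Ids (-1.68), Atp6v1g2 (-0.63), Atp6v0a1 (-0.53), Atp6v0e2 (-0.48) and Atp6v1d (-0.39). In cohort 2 the forms G2, a1 and e2 of the pump thus stood lower against lysate, beside neuronal markers at a median of -0.97 in the same fit, and their part was not tested. Other pump genes lower in TRAP, apart from Atp6v1d, were not called here, among them Atp6v1h (-0.01), Atp6v1c1 (-0.02) and Atp6v1a (-0.23). With each cohort fitted alone, Atp6v1e1 stood at -0.89 in both, and Atp6v1b2 at -1.42 in cohort 1 and -1.30 in cohort 2.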

How the results depend on the processing

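With mouse as a replicate block, 22 enzymes, 9 membrane proteins and 4 pump genes were called higher in TRAP and 3, 1 and 12 lower. This block called 5471 of all 16880 genes higher and 7213 lower, and it changed no member's call there. A block by shared number called 0 members after running, beside 3 of 15644 genes in TRAP and 0 of 16522 in lysate. Run and home cage libraries of the same number shared only that number (correlations -0.173 to 0.218 in TRAP and -0.589 to 0.177 in lysate). Without TMM factors the medians of TRAP over lysate were 1.22 for enzymes, 1.52 for membrane proteins, -1.32 for the pump and 2.02 for the transcription factors, and cohort 2 alone gave 2.12 for enzymes. Leaving out 1 mouse at a time moved the enzyme median in TRAP after running between -0.131 and -0.0176. The 18 ratios that differed between cohorts numbered 14 to 20 when 1 mouse was left out, 20 with DESeq2, 14 without TMM factors and 13 without the 2 mice. Over all genes the main fit called 3430 of 17092. Leaving out 1 mouse gave 2823 to 3473 genes, and DESeq2 gave 3843 of 17092. Without TMM factors it was 4532 of 17092, and without the 2 mice 2312 of 17468. Without TMM factors the count of members thus fell while that over all genes rose. Cohort 1 alone gave a median run change of 0.019 for membrane proteins in lysate. With the longest transcript as gene length, home cage medians were 33.0, 100.8 and 21.6 RPKM in TRAP for membrane proteins, pump and transcription factors, and 13.2, 157.5 and 3.39 RPKM in lysate for enzymes, pump and transcription factors.

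Signs of TRAP over lysate turned for 8 genes. Without TMM factors the values were Neu1 -0.42, Smpd1 -0.49, Slc17a5 -0.34, Atp6ap1 -0.42, Atp6v0b -0.46, Atp6v0c -0.29 and Atp6v1f -0.087, of which the first 5 were called lower. Cohort 1 alone gave Neu1 -0.0079, Atp6ap1 -0.069 and Atp6v0b -0.31, and cohort 2 alone Smpd1 -0.076 and Atp6v0c -0.069. Without the 2 mice whose Y-linked counts went against their label, Neu1 was at -0.064, Smpd1 at -0.034, Atp6ap1 at -0.018 and Atp6v0b at -0.13. Smpd1 was also at -0.017 with DESeq2 and -0.011 without the cohort term. Leaving out 1 mouse at a time gave -0.050 to 0.056 for Smpd1, -2.14 to 0.15 for Atp6v0a4 and -0.014 to 0.13 for Atp6v0b. The cause was not tested. No run call was gained under any setting, and all 95% intervals of the run change, by normal approximation, lay within 1 log2 unit for 59 members in each fraction.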
